A study of Mus musculus with 9 samples.

Results

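Epithelial cells carry serine proteases on their surface together with the proteins that hold them in check. The gene set described here held 6 genes of this kind: *St14*, *Prss8* and *Tmprss2*, which encode proteases, and *Spint1*, *Spint2* and *Wfdc2*, which encode inhibitors or inhibitor-like proteins. The members were chosen by symbol, and every probe carrying one of the symbols was taken, which gave 10 of the 25697 probes and 6 of the 18120 symbols on the array. *Wfdc2* carries the older symbol *1600023A02Rik* in the array annotation. The set was proposed with the differences between the otic vesicle (OV) and the other tissues already known, so those differences are given as a description without a test.

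The samples were 9 pools of tissue from CD-1 mouse embryos at E10.5, with no genetic change and no treatment in any group. The 3 OV pools held dissected otic vesicles, the epithelial sacs from which the inner ear forms. The 3 periotic pools held the tissue around the vesicle, mesenchyme and dorsal hindbrain included, and the 3 embryo-minus-otic pools held embryos from which the otic region had been removed. Embryos came from 3 litters per the study's methods, each array measured a pool of embryos rather than an animal, and the slide of each array is not given in the sources used here. RNA was hybridised to MouseRef-8 v2.0 bead arrays, and levels below are log2 intensities after quantile normalization. On each array, a detection p under 0.01 marked a probe as above background. Each array had between 11283 and 12160 probes above background, or 43.9% to 47.3% of them. OV replicate 1 stood apart from the other OV arrays in heart markers, which summed to 572 units of linear intensity against 332 and 328, with *Actc1* and *Nppa* above background on that OV array alone, and it had the highest sum of red cell markers, 36682 against 27287 and 14524. Without it, no member difference between OV and a non-otic tissue moved by more than 0.17 on the log2 scale.

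Matriptase, encoded by *St14*, spans the plasma membrane of epithelial cells, and prostasin, encoded by *Prss8*, is tethered to it by a lipid anchor. Each can help to activate the zymogen of the other, and both are needed for barrier formation in epithelia such as the epidermis. The Kunitz-type transmembrane inhibitors HAI-1 and HAI-2, encoded by *Spint1* and *Spint2*, restrain this pair, and loss of either inhibitor in mice disturbs development of the placenta. *Wfdc2* encodes a secreted protein with WAP domains that is abundant in the secretions of several epithelia, and *Tmprss2* encodes another membrane-spanning serine protease, known from prostate and airway epithelium.

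The promoters are shown first because the probes of most of these genes had their highest level in the same tissue. RefSeq promoter entries on build GRCm38.p6 were at hand for 4 of the 6 genes, *Wfdc2*, *Spint1*, *Spint2* and *Tmprss2*, and the 250 bases before each annotated start are printed 5′ to 3′ on the strand of the gene. They lie at chr2:164562465-164562714 on the plus strand for *Wfdc2*, chr2:119237110-119237359 on the plus strand for *Spint1*, chr7:29281978-29282227 on the minus strand for *Spint2* and chr16:97611196-97611445 on the minus strand for *Tmprss2*. Capitals mark the GC box, GGGCGG, and the E2-box, CACCTG, each read on both strands.
Wfdc2: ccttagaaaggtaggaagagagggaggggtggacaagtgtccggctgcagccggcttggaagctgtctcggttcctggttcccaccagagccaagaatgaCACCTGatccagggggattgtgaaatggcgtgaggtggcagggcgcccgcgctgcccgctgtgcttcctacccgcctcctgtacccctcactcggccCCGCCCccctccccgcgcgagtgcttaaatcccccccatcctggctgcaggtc
Spint1: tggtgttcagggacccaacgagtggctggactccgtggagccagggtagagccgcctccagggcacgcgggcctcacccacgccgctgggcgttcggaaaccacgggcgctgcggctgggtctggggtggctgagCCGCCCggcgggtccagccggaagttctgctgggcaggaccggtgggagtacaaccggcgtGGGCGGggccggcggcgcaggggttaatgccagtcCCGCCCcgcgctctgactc
Spint2: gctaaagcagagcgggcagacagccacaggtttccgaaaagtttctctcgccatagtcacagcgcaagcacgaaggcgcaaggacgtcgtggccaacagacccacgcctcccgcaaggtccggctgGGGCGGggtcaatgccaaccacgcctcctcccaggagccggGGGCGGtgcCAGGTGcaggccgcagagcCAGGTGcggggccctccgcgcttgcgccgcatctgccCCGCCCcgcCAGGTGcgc
Tmprss2: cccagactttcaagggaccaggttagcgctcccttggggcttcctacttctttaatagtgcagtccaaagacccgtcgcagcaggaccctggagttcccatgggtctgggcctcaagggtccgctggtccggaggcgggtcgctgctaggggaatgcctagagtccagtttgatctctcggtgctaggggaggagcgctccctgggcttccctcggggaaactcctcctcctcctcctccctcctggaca

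The windows of *Wfdc2*, *Spint1* and *Spint2* held GC boxes. The window of *Tmprss2*, the only protease promoter at hand, held none. The *Wfdc2* window had 1 GC box, beginning 53 bases before the start, and 1 E2-box, beginning 150 bases before it. The *Spint1* window had 3 GC boxes and no E2-box, and the ETS motif CCGGAAGT matched 98 bases before the start. The *Spint2* window had 3 GC boxes and 3 E2-boxes, the latter beginning 74, 55 and 9 bases before the start. None of the 5 motifs searched matched in the *Tmprss2* window. The other motifs searched were TATAAA and the grainyhead motif AACCGGTT, neither of which matched in any of the 4 windows. No match of one motif overlapped a match of another. Of 32817 promoter windows of the same length, 32.7% held a GC box, 17.2% an E2-box, 12.4% TATAAA, 2.88% the ETS motif and 0.116% the grainyhead motif. An E2-box at 3 or more places, a count made after the *Spint2* matches had been seen, occurred in 0.247% of the windows. A match is a run of letters and no evidence that a factor binds there.

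Across the 10 probes, the OV arrays lay above the other tissues for nearly every member. On 9 of the 10 probes every OV array was above all 6 non-otic arrays, where 6.86% of all probes showed this, and nothing is read from that share because the set was proposed on these differences. The exception was *Tmprss2*. The median fitted difference of the 10 probes was 1.31 on the log2 scale between OV and periotic tissue and 1.23 between OV and embryo-minus-otic, against -3.7e-05 and 0.0043 over all probes. Many of these values were set against a tissue in which the probe was not above background. With such probes at the lower bound explained below, and the probe that was below background in both tissues at 0, the medians were 1.04 and 1.10. Of the 10 probes, 8 were above background on all 3 OV arrays, while 7 were above background on no periotic array and 4 on no embryo-minus-otic array. In pooled tissue, fewer cells of a type cannot be told apart from less RNA per cell.

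**Figure D1:**
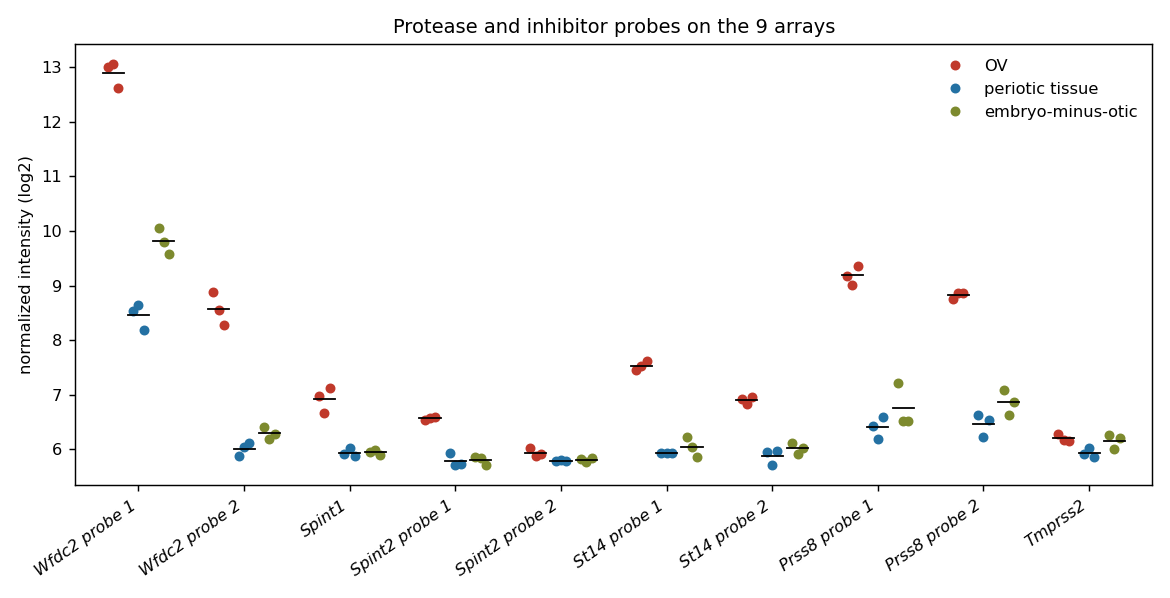
Normalized log2 intensity of the 10 protease and inhibitor probes (y axis) on each of the 9 arrays, by probe (x axis), with points for single arrays and colours for the OV, periotic and embryo-minus-otic groups. The OV points lie above all others for 9 probes and overlap the embryo-minus-otic points for *Tmprss2*. Among the 9 is the second *Spint2* probe, which was above background on no array and whose gap is very small. The first *Wfdc2* probe has the widest gap, 12.90 in OV against 9.81 and 8.46.

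Where a probe was above background on no array of the dimmer group, only a lower bound of the fold Δ is given for the quantile normalized values. The bound sets the mean of the brighter group against the dimmest signal that still counted as above background on each array of the other group, or the probe's own value where that was higher. The position among all 25697 probes follows the OV mean minus the larger of the non-otic means, and is given only for the *Prss8* and *Wfdc2* probes, since the others were below background on all or nearly all non-otic arrays. A bound lies below the fitted fold Δ, so a bound beside a fold Δ does not rank the tissues. Levels of different probes are not set against each other. The 3 comparisons share their groups, so their values are not independent of each other.

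*Prss8* had the largest OV differences among the proteases, and it was read by 2 probes on chromosome 7. The first gave 9.18, 9.02 and 9.36 on the OV arrays, 6.42, 6.19 and 6.60 on the periotic arrays and 7.21, 6.52 and 6.51 on the embryo-minus-otic arrays. All OV arrays lay above all others, and the probe was above background on 2 of 3 periotic and on all 3 embryo-minus-otic arrays. The OV mean of 9.18 ± 0.17 (SD, n = 3) was 6.87-fold that of periotic tissue and 5.41-fold that of embryo-minus-otic, and the probe stood 16th of all probes. The second *Prss8* probe gave 8.76, 8.87 and 8.87 in OV, with 6.62, 6.23 and 6.54 in periotic tissue and 7.09, 6.63 and 6.86 in embryo-minus-otic. It was above background on all 9 arrays, with OV 5.16-fold over periotic tissue and 3.92-fold over embryo-minus-otic, in the 45th place. By group means, both probes had OV highest and periotic tissue lowest. On the first probe, however, the periotic and embryo-minus-otic arrays overlapped.

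*St14* was detected in OV and near the background elsewhere. Its first probe gave 7.45, 7.53 and 7.61 on the OV arrays against 5.93, 5.93 and 5.93 in periotic tissue and 6.22, 6.04 and 5.85 in embryo-minus-otic. Only 1 non-otic array, of the embryo-minus-otic group, passed the background. The OV mean of 7.53 ± 0.08 (SD, n = 3) was at least 2.54-fold above periotic tissue and 2.81-fold above embryo-minus-otic. The second *St14* probe gave 6.92, 6.83 and 6.95 in OV, with 5.95, 5.71 and 5.97 in periotic tissue and 6.12, 5.91 and 6.02 in embryo-minus-otic, and was above background on no non-otic array. Its OV mean was at least 1.64-fold above periotic tissue and at least 1.61-fold above embryo-minus-otic. Both probes read matriptase RNA above background on every OV array.

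*Tmprss2*, read by 1 probe on chromosome 16, did not follow the other proteases. The OV arrays gave 6.28, 6.17 and 6.15, the periotic arrays 5.91, 6.02 and 5.87, and the embryo-minus-otic arrays 6.26, 6.0 and 6.20. OV and embryo-minus-otic overlapped, and the probe passed the background on 2 OV arrays and 1 embryo-minus-otic array but on no periotic array. The OV mean was at least 1.01-fold above periotic tissue. The difference from embryo-minus-otic was 0.047 on the log2 scale (SE 0.093), and its sign turned without normalization, to -0.062, and without embryo-minus-otic replicate 2, to -0.028. With most of its values at background, the probe gives little on how the tissues differ.

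Of the Kunitz inhibitors, *Spint1* passed the background on every OV array and on none of the other 6. Its probe gave 6.98, 6.66 and 7.12 in OV, with 5.92, 6.02 and 5.87 in periotic tissue and 5.95, 5.99 and 5.90 in embryo-minus-otic. The OV mean of 6.92 ± 0.24 (SD, n = 3) was at least 1.67-fold above periotic tissue and at least 1.63-fold above embryo-minus-otic. *Spint2* showed the same pattern on its first probe, with 6.54, 6.57 and 6.60 in OV, with 5.93, 5.72 and 5.73 in periotic tissue and 5.85, 5.84 and 5.71 in embryo-minus-otic. That probe was above background only on the OV arrays, at least 1.31-fold above periotic tissue and at least 1.28-fold above embryo-minus-otic. The second *Spint2* probe passed the background nowhere. It gave 6.01, 5.88 and 5.91 in OV, with 5.78, 5.81 and 5.79 in periotic tissue and 5.83, 5.76 and 5.84 in embryo-minus-otic, and no fold Δ is given for it. The 2 *Spint2* probes therefore disagreed on whether HAI-2 RNA was detected in OV. The promoters of both genes printed above held GC boxes, and the E2-boxes were in that of *Spint2* only.

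On the quantile normalized values, the first *Wfdc2* probe had the largest differences of the set. Over embryo-minus-otic the second lay below the first *Prss8* probe on these values, an order that turned once background was subtracted, as given below. Over periotic tissue the second has only a bound and is not ranked. The first, on chromosome 2, gave 13.01, 13.06 and 12.63 in OV, with 8.54, 8.65 and 8.18 in periotic tissue and 10.06, 9.81 and 9.58 in embryo-minus-otic. It was above background on all 9 arrays, and no array of one group reached into another. OV was 21.7-fold above periotic tissue and 8.48-fold above embryo-minus-otic, and the probe stood 6th of all 25697. The second *Wfdc2* probe gave 8.88, 8.55 and 8.27 in OV, with 5.88, 6.04 and 6.12 in periotic tissue and 6.40, 6.19 and 6.28 in embryo-minus-otic. It passed the background on no periotic array and on 2 embryo-minus-otic arrays, with OV at least 5.22-fold above periotic tissue and 4.84-fold above embryo-minus-otic, in the 21st place. The 2 probes gave the tissues in the same order by group means. Over embryo-minus-otic the second had the smaller difference on the quantile normalized values.

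The sizes of these folds depended on how background was treated. With the neqc method, which estimates a background and subtracts it, OV over periotic tissue was 24.4-fold and 13.0-fold for the *Wfdc2* probes, 12.2-fold and 8.67-fold for the *Prss8* probes, 6.23-fold and 3.53-fold for the *St14* probes, 3.43-fold for *Spint1* and 2.65-fold for the first *Spint2* probe. Over embryo-minus-otic the neqc values were 8.81-fold and 8.84-fold for *Wfdc2*, 8.18-fold and 5.49-fold for *Prss8*, 5.33-fold and 3.06-fold for *St14*, 3.40-fold for *Spint1*, 2.66-fold for the first *Spint2* probe and 1.07-fold for *Tmprss2*. The 2 probes of *Wfdc2* gave nearly the same fold over embryo-minus-otic on this scale.

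**Figure D2:**
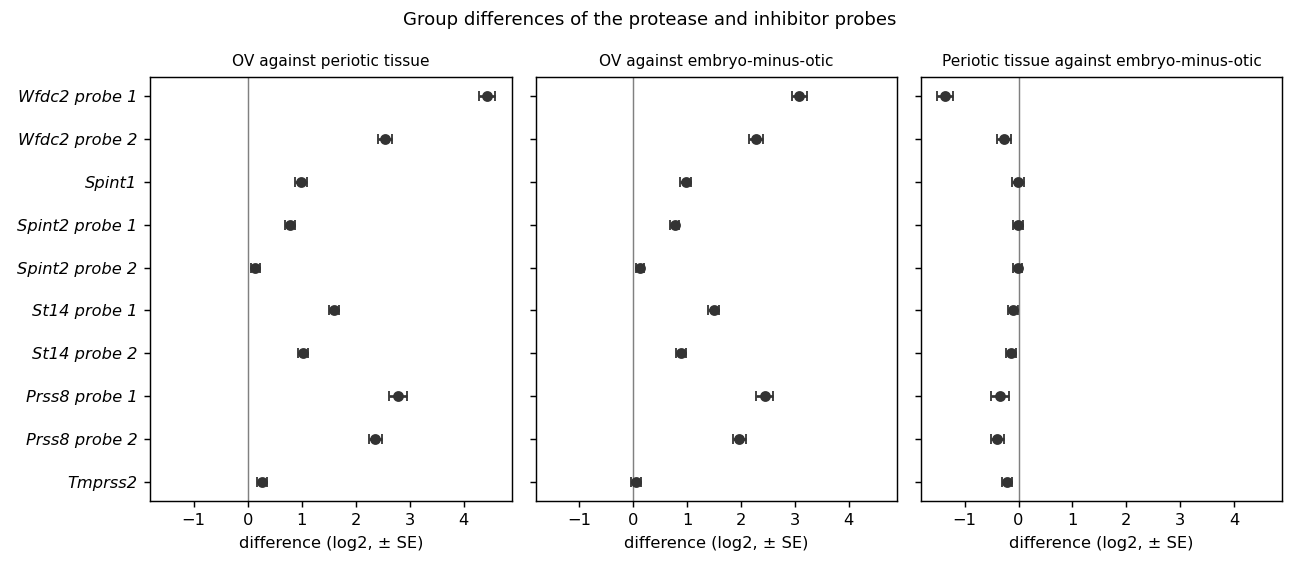
Difference between group means (x axis, log2, with bars for ± SE of the linear model, 3 arrays a group) for the 10 probes (y axis) in the 3 comparisons. The fitted OV values lie to the right of 0 against periotic tissue for all probes, up to 4.44, although 7 of the probes were below background on every periotic array, and in the third panel the first *Wfdc2* probe, at -1.36, is far from the rest.

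The comparison of the non-otic tissues with each other asked where else in the embryo these genes were read. *Wfdc2* was lower in periotic tissue than in embryo-minus-otic on its first probe, where embryo-minus-otic was 2.56-fold higher (*q* = 1.99e-05, limma, adjusted over all probes) and no arrays overlapped. That was 1 call among 10 probes, where 2.95% of all probes were called lower in periotic tissue. The second *Wfdc2* probe differed by -0.28 (SE 0.13, *q* = 0.313), with embryo-minus-otic at least 1.08-fold higher and the arrays not overlapping. The *Prss8* probes differed by -0.35 (SE 0.16, *q* = 0.317) and -0.40 (SE 0.12, *q* = 0.0825). The first difference was -0.12 without embryo-minus-otic replicate 1. The second reached *q* = 0.0401 with the replicate number as a block and *q* = 0.0204 without embryo-minus-otic replicate 2. For the first *St14* probe the difference was -0.11 (SE 0.098, *q* = 0.706) and for *Tmprss2* it was -0.22 (SE 0.093, *q* = 0.248), each with 1 of the 6 non-otic arrays above background. The second *St14* probe, *Spint1* and both *Spint2* probes were above background on no array of either tissue, so there was no level to compare. The embryo-minus-otic arrays lay above the periotic arrays without overlap for 3 probes, both of *Wfdc2* and the second of *Prss8*, where 9.19% of all probes did so. Embryo-minus-otic replicate 1 was the highest array of its group for 8 of the 10 probes, against 35% of all probes and 7 of 17 epithelial marker probes.

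The tissue labels were set against marker genes, in lists chosen with earlier results of these data known. Otic markers summed to between 7338 and 8037 units of linear intensity on the OV arrays, 1226 to 1362 on the periotic arrays and 1385 to 1477 on the embryo-minus-otic arrays, with 9 of 9 genes on the array and 10 of 15 probes above background on every OV array. *Hmx3*, an otic homeobox gene, was above background on no array. Neural tube markers summed to 424 to 469 in OV, 2953 to 3958 in periotic tissue and 1269 to 1552 in embryo-minus-otic. In the non-otic tissues this sum was carried mostly by *Hes5*, while *Sox1*, *Pax6* and *Olig2* of the same list were above background on no array. Heart markers summed to 5000 to 5378 in embryo-minus-otic, to 321 to 344 in periotic tissue and, apart from OV replicate 1, to 328 and 332 in OV. Red cell markers were above background on every array, at 14524 to 36682 in OV, 58005 to 66076 in periotic tissue and 73792 to 82701 in embryo-minus-otic. Mesenchymal markers summed to 1629 to 1830 in OV, 1820 to 2245 around it and 3187 to 4048 in embryo-minus-otic, so OV and periotic tissue overlapped. Neuroblast markers summed to 1073 to 1558, 1104 to 1228 and 1235 to 1511, a sum carried mostly by *Isl1*, while *Neurod1* of the same list was 3.51-fold higher in OV than around it (*q* = 2.94e-08) and 3.33-fold higher than in embryo-minus-otic (*q* = 5.48e-08).

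Genes shared by epithelia in general moved with the proteases and inhibitors. Of 16 general epithelial markers, 15 were on the array with 17 probes, and 13 of these probes were called higher in OV than in periotic tissue and 13 higher than in embryo-minus-otic, where 5.07% and 5.89% of all probes were. Their median differences were 1.73 and 1.16. The list was chosen with earlier results of these data known, so the counts and the *q* values below are a description. Claudin 6 (*Cldn6*, a tight junction protein) was 21.1-fold above periotic tissue in OV (*q* = 1.43e-10), and *Esrp1*, an epithelial splicing regulator, was 16.2-fold higher (*q* = 9.79e-11). *Grhl2*, a grainyhead transcription factor of epithelia, was 5.16-fold higher (*q* = 7.43e-09), and E-cadherin (*Cdh1*) was 3.32-fold higher (*q* = 2.52e-08). Of the 17 probes, 1, for *Lsr*, was above background on no array. The list summed to 13669 to 14256 in OV, 2970 to 3764 in embryo-minus-otic and 1665 to 2120 in periotic tissue. The group means of *Wfdc2* and *Prss8* had this order. Between the non-otic tissues, 6 of the 17 probes were called lower in periotic tissue and none higher, where 2.95% and 2.86% of all probes were. The part of general epithelial RNA in the values of the 6 genes was not tested.

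Markers of surface ectoderm and endoderm had their lowest sums in OV. Surface ectoderm markers summed to 273 to 316 in OV, 383 to 463 in periotic tissue and 551 to 596 in embryo-minus-otic, and of their 5 probes none was above background on all OV arrays. Against each non-otic tissue, 2 of the 5 probes were called lower in OV and none higher, where 5.15% of all probes were called lower against periotic tissue and 5.51% against embryo-minus-otic. *Trp63*, the p63 transcription factor of stratified epithelium, was above background on no OV array and was at least 2.08-fold higher in periotic tissue (*q* = 7.69e-07) and at least 3.35-fold higher in embryo-minus-otic (*q* = 8.01e-09). The keratin gene *Krt14* was also above background on no OV array, and was at least 1.02-fold higher in periotic tissue (*q* = 0.0450) and at least 1.92-fold higher in embryo-minus-otic (*q* = 8.90e-07). *Krt15* was above background on 1 OV array and passed neither test (*q* = 0.348 and 0.777), and *Krt5* and *Perp* were above background on none of the 9 arrays. Endoderm and liver markers summed to 538 to 566 in OV, 669 to 721 in periotic tissue and 987 to 1121 in embryo-minus-otic, with 4 of 9 probes called lower in OV against periotic tissue, 6 of 9 against embryo-minus-otic and none higher. The endodermal factors *Foxa1* and *Foxa2* and the fetal liver gene *Afp* were above background on no OV array, and *Afp* on no periotic array either. Of the same list, a *Sox17* probe, *Apoa1* and *Ttr* were each above background on 1 OV array, and *Alb* was above background on none of the 9 arrays.

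**Figure D3:**
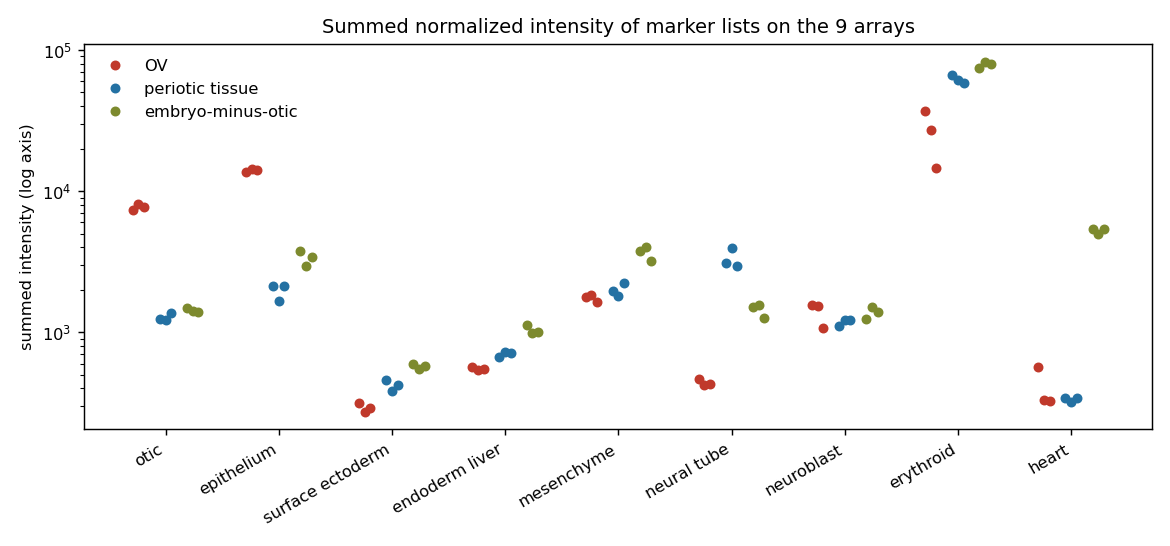
Summed normalized linear intensity of 9 marker lists (y axis, log axis) on each of the 9 arrays, by list (x axis), with colours for the groups and 1 point per array. The otic and general epithelial lists are highest in OV, at 7338 to 8037 and 13669 to 14256, while the surface ectoderm and endoderm lists are lowest there.

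The wider protease and inhibitor families were mostly below background in all 3 tissues. Their lists, too, were chosen with earlier results of these data known. The 6 family lists, without the members, covered 96 genes on the array with 123 probes, of which 16 passed the background throughout at least 1 group. Against periotic tissue, 11 of the 123 probes (8.94%) were called higher in OV and 3 (2.44%) lower, where 5.07% and 5.15% of all probes were. Against embryo-minus-otic, 7 (5.69%) were higher and 3 (2.44%) lower, where 5.89% and 5.51% of all probes were. The median differences were 0.023 and 0.0071 on the log2 scale, against -3.7e-05 and 0.0043 over all probes. The 11 became 7 without periotic replicate 2, and the 3 that were lower became 1 without OV replicate 1 against periotic tissue and 1 without OV replicate 3 against embryo-minus-otic.

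**Figure D4:**
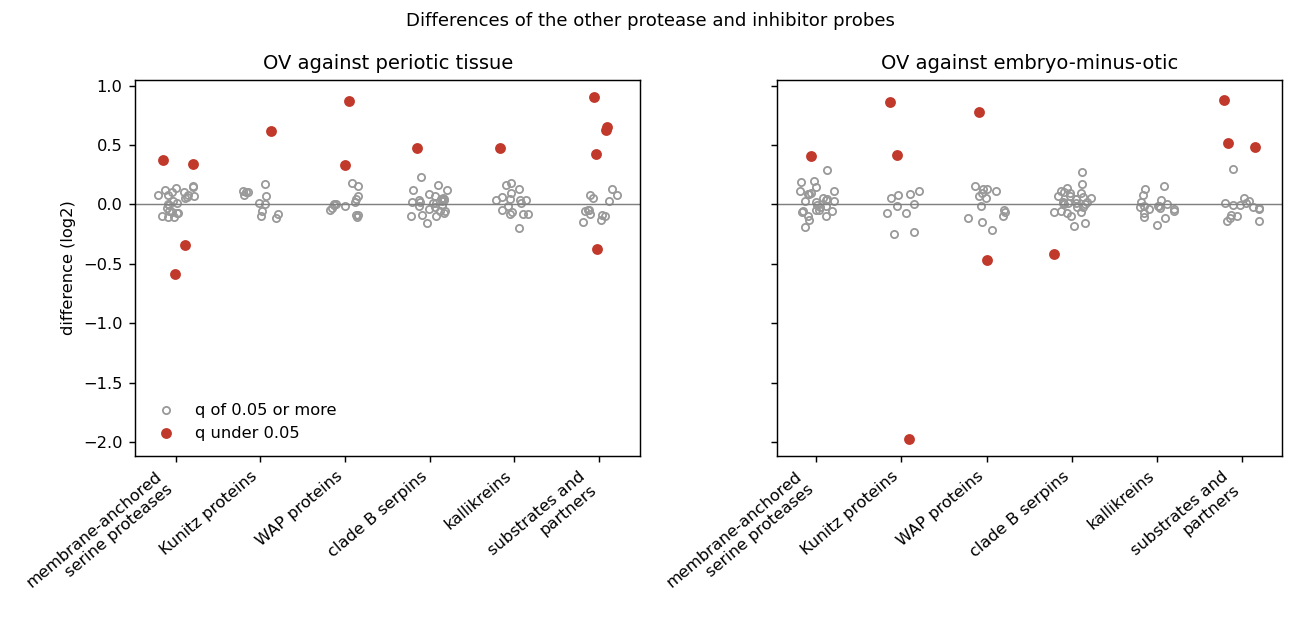
Difference between OV and each non-otic tissue (y axis, log2) for the 123 probes of the 6 family lists (x axis), with filled points where *q* was under 0.05. Most points lie near 0, and the lowest filled point against embryo-minus-otic is *Ambp*, at -1.97.

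Of the other membrane-anchored serine proteases, 20 genes with 28 probes were on the array and 2 probes were above background on all arrays of a group. *Corin*, which cleaves natriuretic peptide precursors, was lower in OV than in periotic tissue, where it was 1.5-fold higher (*q* = 0.00335), and periotic tissue was 1.84-fold above embryo-minus-otic (*q* = 1.70e-04). Its arrays gave 7.25, 7.42 and 7.25 in OV, with 7.92, 7.64 and 8.13 in periotic tissue and 6.87, 7.15 and 7.03 in embryo-minus-otic. *Tmprss7*, the gene of another member of the transmembrane protease family, was at least 1.12-fold higher in periotic tissue than in OV (*q* = 0.0415), a call lost when any of 5 arrays, OV replicates 1 and 2 and each periotic replicate, was left out. *Tmprss3*, in which mutations cause hereditary deafness, was above background on no array, with OV at 5.86, 5.98 and 5.92. *Hpn*, which encodes hepsin and was named after its values were seen, had 2 of its 3 probes called higher in OV than in periotic tissue (*q* = 0.0249 and 0.00762), and the second of these also against embryo-minus-otic (*q* = 0.00364). Both were above background on 1 OV array only, and the first call was lost without OV replicate 2 or 3 or without periotic replicate 2.

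Of the other genes with Kunitz domains, 9 were on the array with 13 probes. *App*, the amyloid precursor gene, was 1.54-fold above periotic tissue in OV (*q* = 1.27e-04) and 1.82-fold higher than in embryo-minus-otic (*q* = 4.43e-06). Its OV arrays gave 10.33, 10.44 and 10.29. *Aplp2*, its paralog, was 1.33-fold higher in OV than in embryo-minus-otic (*q* = 0.0116) and 1.33-fold higher in periotic tissue than in embryo-minus-otic (*q* = 0.0211). The first of these calls was lost without OV replicate 3 or embryo-minus-otic replicate 2, and the second without periotic replicate 1 or 2 or embryo-minus-otic replicate 2. *Ambp*, the precursor gene of bikunin and a gene of liver, was above background on the embryo-minus-otic arrays only, at 7.55, 7.93 and 7.86. It was at least 2.99-fold higher there than in OV (*q* = 3.30e-09) and at least 3.03-fold higher than in periotic tissue (*q* = 4.02e-09), with neqc 8.56-fold and 9.02-fold. The liver genes *Afp* and *Ttr* were above background on all 3 embryo-minus-otic arrays, *Apoa1* on 2 and *Alb* on none. The source of the *Ambp* RNA was not tested.

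Of the other WAP domain genes, 15 were on the array with 16 probes. *Wfdc3* had the pattern of the members, with 6.87, 6.59 and 6.78 in OV, with 5.84, 5.89 and 5.89 in periotic tissue and 6.08, 5.94 and 5.88 in embryo-minus-otic, and was above background on the OV arrays only. It was at least 1.48-fold above periotic tissue in OV (*q* = 7.71e-06) and at least 1.45-fold higher than in embryo-minus-otic (*q* = 2.62e-05). With neqc the values were 3.07-fold and 2.75-fold. *Wfdc1* was 1.38-fold higher in embryo-minus-otic than in OV (*q* = 0.0188), a call lost without OV replicate 3 or embryo-minus-otic replicate 1, and 1.54-fold higher than in periotic tissue (*q* = 0.00467). A probe of *Wfdc6b*, named after its values were seen, was called higher in OV than in periotic tissue (*q* = 0.0298) although it was above background on no array.

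The clade B serpins are mostly intracellular inhibitors, and 25 of their genes were on the array with 30 probes. *Serpinb6a*, whose loss causes deafness in mice, was 1.39-fold above periotic tissue in OV (*q* = 0.0239) and did not pass against embryo-minus-otic (*q* = 0.221). The first call was lost when any OV array, periotic replicate 2 or periotic replicate 3 was left out. *Serpinb6b*, a close relative, was at least 1.19-fold higher in embryo-minus-otic than in OV (*q* = 0.0237), a call lost without OV replicate 2 or 3 or embryo-minus-otic replicate 2 or 3. Among the kallikreins, with 12 genes and 18 probes, a *Klk8* probe was lower in periotic tissue than in both other groups, with OV 1.39-fold higher (*q* = 0.0219) and embryo-minus-otic 1.42-fold higher (*q* = 0.0252). *Klk8* encodes neuropsin, and its OV call was lost without OV replicate 1 or periotic replicate 1 or 2, its embryo-minus-otic call without periotic replicate 1 or 2 or embryo-minus-otic replicate 1 or 3.

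Known substrates and partners of matriptase and prostasin made up the last list, with 15 genes and 18 probes. Of its probes, 4 were called higher in OV than in periotic tissue (22.2%) and 1 lower (5.56%), where 5.07% and 5.15% of all probes were. Against embryo-minus-otic 3 were higher (16.7%), where 5.89% of all probes were, and none was lower. *Cldn7*, a tight junction protein, gave 6.91, 6.91 and 6.97 in OV, with 6.08, 5.89 and 6.10 in periotic tissue and 5.97, 6.30 and 5.88 in embryo-minus-otic. It was at least 1.68-fold above periotic tissue in OV (*q* = 2.39e-05) and 1.84-fold higher than in embryo-minus-otic (*q* = 3.12e-05), with neqc 3.11-fold and 2.99-fold, and it also belongs to the general epithelial markers. *Plau*, which encodes urokinase, was 1.54-fold (*q* = 2.73e-04) and 1.40-fold (*q* = 0.00285) higher in OV. *Cdcp1*, a membrane glycoprotein cleaved by matriptase, was 1.35-fold higher than in periotic tissue (*q* = 0.00413) and at least 1.18-fold higher than in embryo-minus-otic (*q* = 7.85e-04). *Serpine2*, an inhibitor of thrombin and urokinase, was 1.57-fold above periotic tissue in OV (*q* = 4.83e-04) and did not pass against embryo-minus-otic (*q* = 0.0963).

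The remaining partners were mostly below background. The subunits of the epithelial sodium channel, which prostasin activates (*Scnn1a*, *Scnn1b* and *Scnn1g*), the receptor PAR2 (*F2rl1*), hepatocyte growth factor (*Hgf*), its activator (*Hgfac*), its receptor (*Met*), the related receptor *Mst1r* and the urokinase receptor (*Plaur*) were above background on no array. *Egfr* had 4 probes, of which 1 was above background on all arrays and was 1.29-fold higher in periotic tissue than in OV (*q* = 0.0127), a call lost without OV replicate 1. *Mst1* was above background on 1 periotic and 1 embryo-minus-otic array. The adhesion gene *Epcam* had no probe matched by symbol here.

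The members were also set against every probe that passed the background throughout at least 1 group, by Pearson correlation over the 9 arrays. These correlations describe arrays that share the same 3 groups and carry no test, and r takes no account of the size of a difference. The *St14*, *Spint1*, *Spint2* and *Tmprss2* probes used were below background on most of the arrays. Closest to the first *St14* probe were *Arhgef19* (r = 0.997), *Cckbr* (r = 0.996) and the otic marker *Gata3* (r = 0.996). Closest to the first *Prss8* probe were *Cep170b*, listed as *AW555464*, *Rab25*, a GTPase of epithelia, and *Ap1m2*, an epithelial adaptor subunit, each at r = 0.994. *Spint1* was closest to *Zscan10* (r = 0.994), *Krt23*, listed as *Krt1-23* (r = 0.985), and *Cmtm5*, listed as *Cklfsf5* (r = 0.985). *Spint2* was closest to *Sh3gl2* (r = 0.990), *Zfp64* (r = 0.987) and *Ptpre* (r = 0.987), and *Wfdc2* to *Fgf10* (r = 0.994), *Fkbp4* (r = 0.994) and *Krtcap3* (r = 0.993). For *Tmprss2* the closest were *Rpp21* (r = 0.949), *Sh3glb2* (r = 0.945) and *Asb7* (r = 0.938). Among the members, the first *St14* probe and the first *Prss8* probe had r = 0.991, and *Tmprss2* correlated with the other member probes between 0.490 and 0.716.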

How the data were processed

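The values the authors deposited were average signals from GenomeStudio, an intensity per probe that had not been normalized, each with a detection p-value. Whether background was subtracted is not stated in the sources used here. The lowest signal of an array ran from 32.8 (embryo-minus-otic replicate 3) to 49.2 (embryo-minus-otic replicate 1). All signals were thus positive, and the values do not look background-subtracted. The sequences of the probes were not analysed here. RNA had been converted to biotin-labelled cRNA. Arrays were grouped by the tissue in their labels, 3 in each of 3 groups, and their number limits the precision. Where the labels do not tie replicates to separate animals, p-values measure only the spread between these samples.

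Intensities were log2 transformed and quantile normalized over 9 arrays. A linear model of the 3 groups with empirical Bayes moderation was fitted to all 25697 probes, two-sided (limma 3.58.1, R 4.3.3). P-values were adjusted over all probes by the Benjamini-Hochberg method, giving *q*, with a threshold of 0.05. Probes were not averaged by gene. The steps were tested on simulated data.

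The members and the gene lists were chosen with earlier results of these data known. Named genes were all member probes, family genes above background on all arrays of a group with *q* under 0.05 in a comparison, *Tmprss3*, *Serpinb6a*, the substrate list, marker genes, and the 3 probes most like each member. The labels do not say whether replicate numbers mark litters, and the correlation of deviations between arrays of one number ran from 0.011 to 0.234. Alternatives were median or no normalization, neqc with an offset of 16, a filter on background, a detection p of 0.05, fits to the compared groups, an intensity trend, a replicate block and leaving out each array.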

Additional observations from a re-analysis of the deposited data

How the results depend on the processing

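For the family lists, the count of probes called higher in OV than in periotic tissue (11) was 7 with median normalization and 4 without normalization, and 7 to 11 with 1 array left out. The count called lower (3) was 1 without normalization and 1 to 3 with 1 array left out. Against embryo-minus-otic, the count called higher (7) was 3 without normalization, and the count called lower (3) was 1 with median normalization, 1 without normalization and 1 to 3 with 1 array left out. Between the non-otic tissues, the count higher in periotic tissue (2) was 1 without normalization, 1 with neqc and 1 to 2 with 1 array left out (1 without periotic replicate 1, periotic replicate 2 or embryo-minus-otic replicate 2). The count lower (3) was 1 with median normalization, 1 without normalization and 2 to 5 with 1 array left out (5 without periotic replicate 3). Without normalization the calls lost were, against periotic tissue, *App*, *Cdcp1*, *Klk8*, *Serpinb6a*, *Wfdc6b*, *Tmprss7*, *Egfr* and both *Hpn* probes, against embryo-minus-otic, *Aplp2*, *Cdcp1*, *Plau*, *Wfdc1*, *Serpinb6b* and the second *Hpn* probe, and between the non-otic tissues, *Aplp2*, *Wfdc1* and *Klk8*. The cause of these shifts was not tested. The sign of uncalled differences between the non-otic tissues turned for *Spint1* (-0.010 with all arrays, -0.050 to 0.023, including 0.013, with 1 array left out), for the first *Spint2* probe (from -0.011 to 0.0012 with neqc and -0.081 to 0.026 with 1 array left out) and for the second *Spint2* probe (-0.037 to 1.8e-05 with 1 array left out, the latter without embryo-minus-otic replicate 3). The filter on background left out the second *Spint2* probe and *Tmprss2*. At a detection p of 0.05, 9 member probes instead of 8 were above background on all OV arrays.

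With the replicate number as a block, family calls were 14 against 14 in OV against periotic tissue, 11 against 10 in OV against embryo-minus-otic and 6 against 5 between the non-otic tissues, and the calls over all probes were 2790 against 2625, 3221 against 2930 and 1669 against 1493. Each of the 9 arrays correlated best with its own number. The study's methods describe 3 litters separated into pools of the 3 tissues, so arrays of one number may be paired. The labels do not tie the numbers to litters, and the main fit does not use such a pairing. The second *Prss8* probe passed the threshold between the non-otic tissues with the block (*q* = 0.0401).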
